A study of Mus musculus with 18 samples.

Results

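The genes described here encode the subunits of the mitochondrial respiratory chain and ATP synthase in cultured mouse bone-marrow-derived macrophages. They were chosen by name from the table of raw counts (names beginning Ndufa, Ndufb, Ndufc, Ndufs or Ndufv with a number, Sdha to Sdhd, and names beginning Uqcr, Cox4 to Cox8, Atp5, mt-Nd, mt-Co, mt-Atp or mt-Cytb, without pseudogenes). Of 30530 listed genes, 97 matched and 92 had at least 10 counts in at least 3 libraries: 79 of the 84 nuclear genes and the 13 mitochondrially encoded mRNAs. The 5 left out were Cox4i2, Cox7b2, Cox8b, Cox8c and Ndufa4l2. All 92 also entered the test, so no member was kept or lost by the filter of the test. The macrophages came from C57BL/6 (B6) or Ch25h-/- mice, which lack the enzyme that makes 25-hydroxycholesterol (25HC) from cholesterol. B6 cells were untreated or received 5 µM of 25HC for 18 hours, and were then left at rest or stimulated with 300 ng/mL of Pam3CSK4 (PAM3), a lipopeptide ligand of Toll-like receptors 1 and 2. Ch25h-/- cells received no 25HC and were studied at rest and with PAM3. Each of the 6 groups had 3 libraries, numbered by mouse, and the labels give a stimulation time of 18, without a unit, for PAM3 and 0 for rest.

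Complex I (NADH dehydrogenase), complex III and complex IV (cytochrome c oxidase) pump protons while passing electrons to oxygen, complex II (succinate dehydrogenase) feeds electrons from the tricarboxylic acid cycle, and complex V (ATP synthase) uses the proton gradient to make ATP. Complexes I, III, IV and V are built from subunits of both genomes: nuclear genes are transcribed singly and their proteins imported, whereas the mitochondrial mRNAs are cut from long transcripts of the mitochondrial chromosome made by a separate polymerase. In macrophages, respiration is known to change with activation by Toll-like receptor ligands. The 92 genes comprised 35 nuclear and 7 mitochondrial genes of complex I, 4 nuclear genes of complex II, 8 and 1 of complex III, 15 and 3 of complex IV, 15 and 2 of complex V, and 2 genes, Atp5s and Atp5sl, that carry the name but were not assigned to a complex. Ndufa4 was counted with complex IV. Each of the 13 mitochondrial genes is called an mRNA here. On the same strand, however, mt-Atp8 overlaps mt-Atp6 and mt-Nd4l overlaps mt-Nd4. The number 13 thus counts genes, and overlapping genes can lie on 1 transcript.

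Libraries held 14040513 to 150440297 counts. Among the 92 genes the lowest counts were those of Ndufb4, Cox6a2, Cox6b2, Cox7a1 and Atp5g2. Ch25h was measured at 1.66 to 40.8 CPM (counts scaled by each library's TMM-normalised total) in the 12 B6 libraries and at 0 to 0.119 CPM in the 6 Ch25h-/- libraries. Summed macrophage markers, with Lyz2 the most abundant, reached 18387 to 57981 CPM. Other summed lists reached at most 0.52 CPM (B cells), 0.07 (T cells), 5.43 (dendritic cells), 11.4 (fibroblasts), 46.2 (neutrophils) and 35.6 (osteoclasts). The first principal component held 62.9% of the variance, and on the third, with 7.93%, replicate 2 of Ch25h-/- at rest stood apart at a score of 75.6 (all others -45.8 to 31.3). Differences are given as log2 fold changes ± SE from edgeR's quasi-likelihood test with 3 libraries a group, and genes are said to have risen or fallen at a Benjamini-Hochberg adjusted p below 0.05 over 12741 tested genes. The labels number the mice within each genotype and name no batch, so p-values measure the spread between these libraries.

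The mitochondrial mRNAs could not all be counted equally well. Mouse chromosome 1 (GRCm38, chr1:24611535-24616197) carries a nuclear copy of part of the mitochondrial chromosome, annotated as the pseudogenes Gm28438, Gm10222, Gm28439, Gm28437, Gm10925, Gm28661 and Gm29216. Every 50-base stretch was compared with the transcripts of all other annotated genes. For mt-Co2, 100% of the stretches also occur in another gene, and for mt-Co3, mt-Atp6, mt-Nd4l and mt-Nd3 the share was 99.9%, 99.5%, 98.8% and 98.0%. It was 62.2% for mt-Nd4, 51.1% for mt-Co1, 8.19% for mt-Nd2, 7.61% for mt-Nd5 and 0% for mt-Nd1, mt-Cytb, mt-Atp8 and mt-Nd6. The start of mt-Co3 and the border within mt-Co1 show the difference. Both are read from GENCODE M21 transcripts (GRCm38, plus strand), at chrM:8607-8726 and chrM:6304-6483, and capitals mark bases that lie in a 50-base stretch identical to the nuclear copy (Gm28437 or Gm29216).
mt-Co3: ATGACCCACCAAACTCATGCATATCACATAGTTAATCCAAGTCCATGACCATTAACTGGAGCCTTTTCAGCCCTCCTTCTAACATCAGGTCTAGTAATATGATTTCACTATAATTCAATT
mt-Co1: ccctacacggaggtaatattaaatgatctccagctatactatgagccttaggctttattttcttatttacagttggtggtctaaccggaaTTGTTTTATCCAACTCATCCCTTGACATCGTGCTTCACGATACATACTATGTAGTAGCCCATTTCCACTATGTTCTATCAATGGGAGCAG
In the 180 bases of mt-Co1 shown, 90 are in capitals, and all 120 of mt-Co3 are. The sources used here do not say how reads that align in several places were counted. For a gene shared along nearly its whole length, the counts can therefore be a small part of its reads.

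Per kilobase of exon, the 5 genes shared over at least 98.0% of their stretches had mean levels of 28.6 to 191.9 CPM per kb over all libraries. The most abundant was mt-Co1, the catalytic subunit of complex IV, at 5635 CPM per kb, followed by mt-Nd1 at 1614, mt-Cytb at 1502, mt-Nd2 at 946 and mt-Nd5 at 827. The other genes with no shared stretch were low: mt-Atp8 at 103 and mt-Nd6 at 36.8 CPM per kb. Some mitochondrial genes overlap by position: mt-Nd4l with mt-Nd4, mt-Atp6 with mt-Co3, and mt-Nd5 with mt-Nd6 on the opposite strand. The last 43 bases of mt-Atp8 are also the first of mt-Atp6, and they are shown in capitals below (chrM:7766-7969, plus strand, GENCODE M21).
mt-Atp8: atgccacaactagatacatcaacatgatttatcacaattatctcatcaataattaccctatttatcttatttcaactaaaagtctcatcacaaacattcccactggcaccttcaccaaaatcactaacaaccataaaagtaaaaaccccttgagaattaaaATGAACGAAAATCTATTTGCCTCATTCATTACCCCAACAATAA
It is 204 bases long, the shortest of the 13. Among nuclear genes the median level was 32.4 CPM per kb, and the range ran from 0.39 for Cox6b2 to 164 for Cox6b1. By complex the medians were 25.1 (I), 53.5 (II), 42.4 (III), 61.6 (IV) and 33.8 CPM per kb (V). Of the nuclear genes, 19 shared at least 10% of their stretches with other genes. For Atp5o the share was 41.6%, with 4 genes, of which Gm15976 on the opposite strand held the most (308 of 1993 stretches), and for Ndufb6 it was 31.6%, with Smim27 on the opposite strand.

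**Figure D1:**
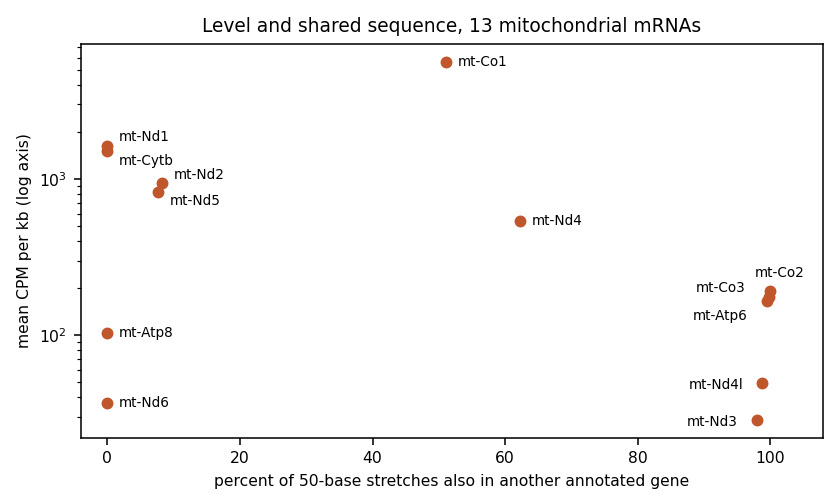
Mean level over 18 libraries (CPM per kb of exon, log axis) of each mitochondrial mRNA against the percent of its 50-base stretches that occur in another annotated gene. The 5 genes at 98.0% or more lie between 28.6 and 191.9 CPM per kb, and mt-Co1, at 51.1%, is highest at 5635.

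The mitochondrially encoded mRNAs took 1.11% to 2.13% of all counts of a library, 49.8% to 61.5% of it from mt-Co1, and the 79 nuclear genes together 0.453% to 0.693%. In B6 at rest the nuclear share was 0.542%, 0.539% and 0.546% in mice 1, 2 and 3, and with 25HC it was 0.607%, 0.588% and 0.611%, with no overlap. The mitochondrial share went the other way, from 1.59%, 1.33% and 1.79% to 1.22%, 1.28% and 1.35%, and was lower with 25HC in each of the 3 mice, although the groups overlap. With PAM3 the nuclear share was 0.542%, 0.654% and 0.693% without 25HC and 0.472%, 0.556% and 0.486% with it. The groups overlap, with mouse 1 of the PAM3 group well under mice 2 and 3, but within each of the 3 mice the share was lower with 25HC. The mitochondrial share was 1.55%, 1.11% and 1.24% with PAM3 and 1.59%, 1.44% and 1.71% with PAM3 after 25HC. The highest mitochondrial shares were those of Ch25h-/- cells at rest, at 2.05%, 2.13% and 2.09%, above every other library. With PAM3 they were 1.43%, 1.74% and 1.54% in Ch25h-/-, and their nuclear share, at 0.563%, 0.453% and 0.548% before PAM3, was 0.609%, 0.641% and 0.621% after it. The ratio of mitochondrial to nuclear counts was 2.89 ± 0.410 in B6 at rest, 2.13 ± 0.101 with 25HC, 2.12 ± 0.645 with PAM3, 3.16 ± 0.50 with both, 4.06 ± 0.573 in Ch25h-/- at rest and 2.51 ± 0.185 with PAM3 (SD, n = 3 each). In bulk RNA, fewer mitochondria or cells and less RNA in each cannot be told apart, and the shares are relative to each library's unscaled total.

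**Figure D2:**
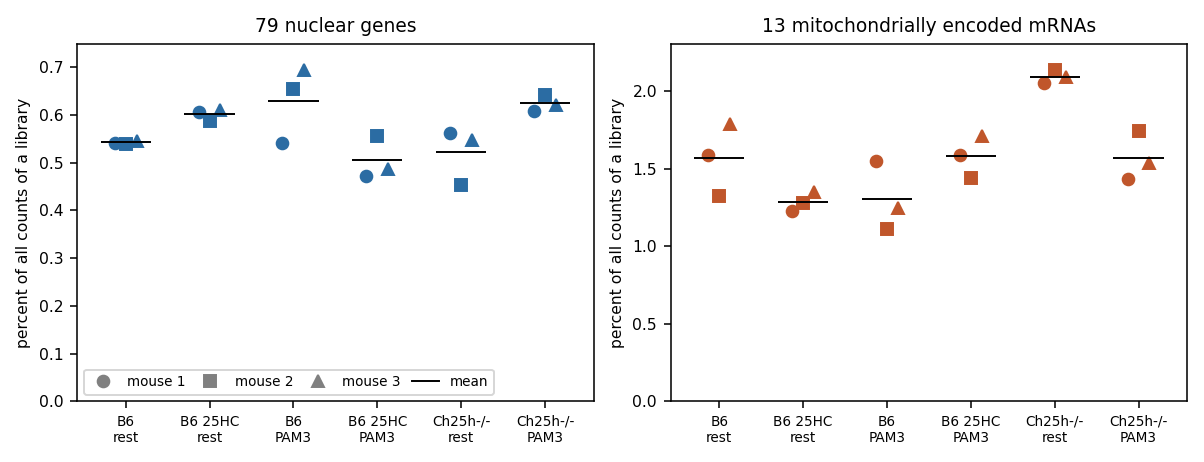
Percent of all counts of a library that fell on the 79 nuclear genes (left) and the 13 mitochondrial mRNAs (right), 1 point per mouse and a line at each group's mean. The 3 Ch25h-/- libraries at rest lie at 2.05% to 2.13% on the right, above all others.

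In B6 macrophages at rest, 25HC lowered mitochondrial mRNAs and left most nuclear genes without a call. Of the 13 mitochondrial mRNAs 7 fell and 0 rose, with a median log2 fold change of -0.40. Of the 79 nuclear genes 5 rose and 2 fell, with a median of 0.11. Among all tested genes 14.8% rose and 11.4% fell, with a median of -0.01. The fallen mRNAs encode complex I subunits (mt-Nd1, mt-Nd2, mt-Nd3, mt-Nd5 and mt-Nd6) and both mitochondrial subunits of ATP synthase (mt-Atp8 and mt-Atp6). The genes of the last 2 overlap. The largest fall was that of mt-Nd6, the only one of the 13 encoded on the other strand of the mitochondrial chromosome, from 21.4, 9.87 and 20.02 CPM to 6.85, 4.08 and 4.02 CPM. All 3 treated libraries lay under all 3 untreated ones (log2 fold change -1.78 ± 0.40, edgeR adjusted p = 0.00547). For mt-Atp8 the values were 20.2, 15.4 and 26.4 CPM untreated and 8.39, 8.65 and 10.2 CPM treated, again without overlap (-1.18 ± 0.23, edgeR adjusted p = 0.00248). Falls were smaller for mt-Nd3 (-0.80 ± 0.22), mt-Nd2 (-0.71 ± 0.22), mt-Nd1 (-0.62 ± 0.20), mt-Nd5 (-0.53 ± 0.19) and mt-Atp6 (-0.40 ± 0.13). The value of mt-Cytb was -0.24 ± 0.16, of mt-Co1 -0.23 ± 0.13 and of mt-Nd4l 0.39 ± 0.17, none past the test. Library strand was kept by the kit, but the sources used here do not give the strand setting of the counting, so reads of mt-Nd6 and of transcripts of the opposite strand may not be separated. The libraries hold polyadenylated RNA, and how fully mt-Nd6 or any other mitochondrial mRNA is captured that way was not tested. The count of 7 rests in part on single libraries: without replicate 3 of untreated B6 at rest it was 2, without replicate 1 of the 25HC group 3, and without replicate 1 of untreated B6 or replicate 2 or 3 of the 25HC group 4.

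The 5 nuclear genes that rose with 25HC at rest were Uqcrq, Cox6a2, Atp5g1, Ndufs5 and Ndufa2. Uqcrq, which encodes a small subunit of complex III, was measured at 38.3, 39.5 and 36.2 CPM untreated and 94.5, 65.7 and 85.3 CPM treated (1.11 ± 0.20, edgeR adjusted p = 0.00123). The 2 groups are far apart, and no other nuclear complex III gene passed the test in this comparison. Atp5g1, one of 3 genes for the membrane c subunit of ATP synthase, went from 12.5 ± 2.20 to 18.7 ± 1.99 CPM (SD, n = 3), a log2 fold change of 0.58 ± 0.20. Ndufs5 (0.50 ± 0.15) and Ndufa2 (0.47 ± 0.15) are accessory complex I genes. Cox6b2 and Atp5s fell, Cox6b2 at a very low level. Complex II, with 0 of 4 genes called in either direction, had a median of -0.13, with values in both directions from -0.23 to 0.31. At an unadjusted p below 0.05 by edgeR there were 3 of the 4, against 4985 of 12741 tested genes. Without replicate 3 of untreated B6, or replicate 1 or 3 of the 25HC group, 2 nuclear genes rose. The falls were 1 in the first case and 0 without replicate 1 of the 25HC group.

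With PAM3 present, 25HC lowered nuclear genes: 42 of 79 fell and 1 rose, with a median log2 fold change of -0.39, while 3 of the 13 mitochondrial mRNAs rose and 0 fell, with a median of 0.29. Among all tested genes 23.6% fell and 21.5% rose, with a median of -0.04. Falls came from every complex: 17 of 35 nuclear genes of complex I (median -0.42), 3 of 4 of complex II (-0.47), 3 of 8 of complex III (-0.30), 8 of 15 of complex IV (-0.39) and 10 of 15 of complex V (-0.41). The values of 76 of the 79 nuclear genes were below 0. The mitochondrial median was 0.31 in complex I, 0.11 in complex IV and 0.37 in complex V. Genes with little exonic sequence moved as well: over the 538 tested genes with the shortest exonic sequence the median was -0.29. Length here is that of all annotated exons of a gene together, which can exceed that of its mRNA. Nuclear members had a median length of 1675 bases against 4335 for all tested genes. With the trend of fold change on length removed, 35 nuclear genes fell and 1 rose (median -0.25), and 6 mitochondrial mRNAs rose (median 0.46). Cytosolic ribosomal protein genes, which are also short and abundant, fell in 21 of 79 cases, with a median of -0.25.

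In complex I, the largest fall with 25HC and PAM3 was that of Ndufv3, a flavoprotein-fraction subunit of the NADH-binding arm, from 50.6, 69.1 and 80.7 CPM with PAM3 alone to 27.1, 40.5 and 31.2 CPM (-1.02 ± 0.15, edgeR adjusted p = 9.2e-05). No treated library reached the lowest library without 25HC. Ndufc2 went from 55.6, 69.7 and 81.0 CPM to 34.7, 45.7 and 34.4 CPM (-0.84 ± 0.14, edgeR adjusted p = 0.000156). The core subunits, those that carry the flavin and iron-sulfur centres, fell in 3 of 7 cases (median -0.35), among them Ndufs8 (-0.63 ± 0.15) and Ndufv2 (-0.62 ± 0.14). Ndufv1, which holds the flavin, had a value of -0.05 ± 0.09, and Ndufs1 one of -0.09 ± 0.10. Ndufb5, Ndufb8 and Ndufa8, all accessory subunits, fell by 0.63, 0.62 and 0.62 on the log2 scale.

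In complex II, Sdhb, the iron-sulfur subunit, was measured at 132, 164 and 185 CPM with PAM3 and at 104, 127 and 105 CPM with PAM3 after 25HC (-0.52 ± 0.12, edgeR adjusted p = 0.00219). Sdha, the flavoprotein that binds succinate, went from 227, 235 and 257 CPM to 179, 180 and 174 CPM (-0.43 ± 0.09, edgeR adjusted p = 0.00127). Both genes are lower in every treated library than in every library without 25HC. Sdhc, a membrane anchor, fell by 0.58 on the log2 scale, and the other anchor, Sdhd, was at -0.11 ± 0.09. In complex III the falls were those of Uqcr11 (-0.71 ± 0.19), Uqcrh (-0.62 ± 0.15) and Uqcrc1 (-0.33 ± 0.11). Uqcrc2, a core protein like Uqcrc1, had a value of -0.01 ± 0.09, and Uqcrfs1, the Rieske iron-sulfur protein, -0.03 ± 0.08.

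In complex IV, Cox6c (-0.68 ± 0.12), Cox6b1 (-0.50 ± 0.13), Cox7a2 (-0.48 ± 0.13), Cox4i1 (-0.39 ± 0.11) and Ndufa4 (-0.38 ± 0.13) fell beside Cox5a, which is described with the PAM3 response. In complex V, Atp5o, which joins the catalytic head to the stalk, went from 76.6, 87.9 and 109 CPM to 50.5, 59.8 and 48.9 CPM (-0.78 ± 0.15, edgeR adjusted p = 0.000526), without overlap. Of the 5 genes of the catalytic F1 head, 3 fell: Atp5e (-0.63 ± 0.16), Atp5c1 (-0.56 ± 0.09) and Atp5a1 (-0.38 ± 0.13). Atp5b, the catalytic beta subunit, was at -0.30 ± 0.19 and did not pass the test. Of the 3 c-subunit genes Atp5g3 fell (-0.55 ± 0.17), and Atp5g1 and Atp5g2 were at -0.39 ± 0.20 and -0.41 ± 0.17.

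The mitochondrial mRNAs that rose with 25HC in the presence of PAM3 were mt-Nd5 (0.61 ± 0.19), mt-Nd4l (0.50 ± 0.17) and mt-Cytb (0.50 ± 0.16). For mt-Cytb the values were 1397, 1123 and 1166 CPM with PAM3 and 1643, 1618 and 1958 CPM with PAM3 after 25HC (edgeR adjusted p = 0.0187), and the groups do not overlap. These calls rest on single libraries: without replicate 3 of the PAM3 group or replicate 3 of the PAM3 and 25HC group 0 of 13 rose, without replicate 2 of the PAM3 group 1 rose, and without its replicate 1 it was 4. The largest fitted values among those that did not pass were mt-Nd6 at 0.55 ± 0.38 and mt-Atp8 at 0.53 ± 0.23.

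**Figure D3:**
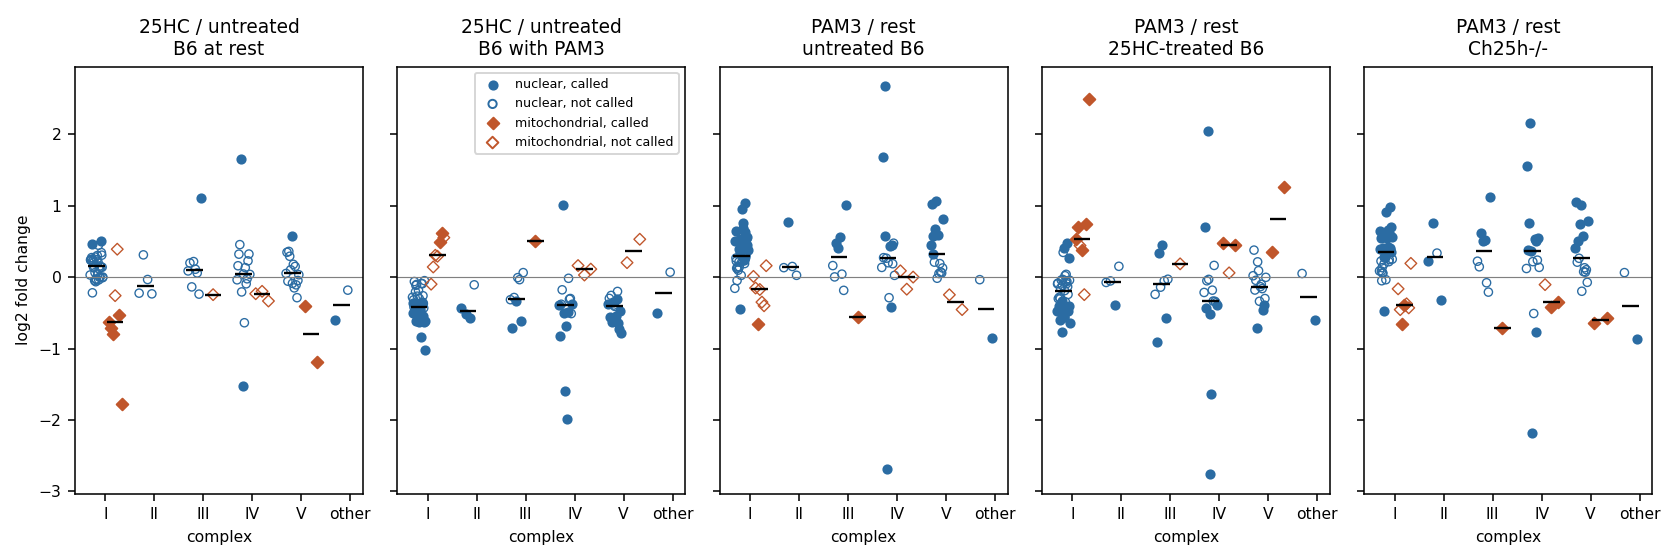
Log2 fold change of each gene in 5 comparisons, by complex. Circles are nuclear genes and diamonds mitochondrial mRNAs, filled where the adjusted p was below 0.05, with a line at each median. In the second panel nuclear genes lie mostly below 0 and mitochondrial mRNAs mostly above it, and in the third nuclear genes lie mostly above 0.

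PAM3 alone raised nuclear genes in B6 macrophages. Of 79, 37 rose and 4 fell, with a median log2 fold change of 0.27, and 2 of the 13 mitochondrial mRNAs fell (mt-Nd3 at -0.66 ± 0.22 and mt-Cytb at -0.56 ± 0.16), with a median of -0.17 and 0 rises. Among all tested genes 31.3% rose and 30.8% fell, with a median of 0.00. By complex, 19 of 35 rose in I, 1 of 4 in II, 4 of 8 in III, 5 of 15 in IV and 8 of 15 in V. Because the PAM3 and rest libraries differ in the labelled stimulation time, effects of PAM3 and of time in culture cannot be told apart here. Leaving out replicate 2 of the untreated resting cells gave 6 mitochondrial falls, leaving out replicate 1 of the PAM3 group 4, and leaving out resting replicate 3 gave 1. Summed macrophage markers were at 24037 to 31215 CPM at rest, 44366 to 57981 with PAM3 and 26260 to 32864 with PAM3 after 25HC. Summed osteoclast markers were at 9.30 to 11.6, 24.2 to 35.3 and 11.1 to 21.4 CPM in the same groups. Both were higher with PAM3 alone than in the other groups named here, without overlap, and their part in the nuclear results of PAM3 and of 25HC with PAM3 was not tested. The 4 nuclear falls were 2 without replicate 2 at rest or replicate 1 of the PAM3 group.

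The largest rise in an abundant gene was that of Cox5a, a nuclear subunit at the matrix side of complex IV. It was measured at 65.8, 70.7 and 69.0 CPM at rest and at 180, 238 and 245 CPM with PAM3, a log2 fold change of 1.69 ± 0.14 (edgeR adjusted p = 9.36e-08). In 25HC-treated cells it went from 80.6, 70.1 and 79.1 CPM to 113, 148 and 113 CPM (0.70 ± 0.13, edgeR adjusted p = 0.000331). In Ch25h-/- it went from 77.5, 64.5 and 76.4 CPM to 198, 216 and 227 CPM (1.55 ± 0.14, edgeR adjusted p = 2.35e-07). In each setting the PAM3 libraries lie above all rest libraries, and those with 25HC lie below those without it (-0.83 ± 0.13 for 25HC with PAM3, edgeR adjusted p = 0.000143). Cox5b, another nuclear subunit of complex IV, had a value of 0.27 ± 0.15 with PAM3 and did not pass the test.

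Other rises with PAM3 in untreated B6 were Atp5g1 (1.06 ± 0.20), Atp5b (1.03 ± 0.19), Ndufs4 (1.03 ± 0.13), Uqcrq (1.01 ± 0.20), Ndufb6 (0.96 ± 0.16), Atp5o (0.81 ± 0.15) and Sdhb (0.78 ± 0.12). Ndufs4, an accessory complex I subunit needed for assembly of the NADH-binding arm, went from 27.5, 25.2 and 28.9 CPM to 48.7, 51.6 and 66.9 CPM (edgeR adjusted p = 8.41e-06). Atp5b, the most abundant nuclear member by CPM, went from 476, 350 and 436 CPM to 763, 844 and 960 CPM (edgeR adjusted p = 0.000268). Both show a clear gap between the groups. The nuclear genes that fell were Cox6b2, Atp5sl (-0.85 ± 0.16), Ndufb11 (-0.44 ± 0.14) and Cox7a2l (-0.41 ± 0.15). Cox7a2l was at 144, 175 and 147 CPM at rest and 106, 104 and 140 CPM with PAM3. Its call ended without resting replicate 2 or without replicate 1 or 2 of the PAM3 group (edgeR adjusted p up to 0.104).

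In 25HC-treated B6 cells, 24 of 79 nuclear genes fell with PAM3 and 7 rose (median -0.16), and 9 of 13 mitochondrial mRNAs rose and 0 fell (median 0.45). Among all tested genes 30.4% fell and 28.5% rose, so the share of nuclear genes that fell was near that of all genes, and the share that rose was below it. The 7 risers, all of which also rose in untreated cells, were Ndufs4, Ndufb6, Ndufv1, Uqcrb, Uqcrc2, Cox5a and Cox6a2. Falls included 12 of 35 genes of complex I, 5 of 15 of complex IV and 3 of 15 of complex V, the largest in genes with adequate counts being Uqcr11 (-0.91 ± 0.19), Ndufb11 (-0.77 ± 0.14) and Atp5e (-0.71 ± 0.16). The nuclear result depends on whether the trend with exonic length is removed. Short genes had a median of -0.22 in this comparison, and with the length trend removed 14 nuclear genes rose and 14 fell (median -0.03), while 11 mitochondrial mRNAs rose (median 0.68). Over all members the split of 16 rises to 24 falls became 25 to 14. Without replicate 1 of the PAM3 and 25HC group 14 nuclear genes fell, and 4 rose without replicate 2 of either 25HC-treated group.

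The mitochondrial rises in 25HC-treated cells were led by mt-Nd6, from 6.85, 4.08 and 4.02 CPM to 29.3, 19.8 and 35.1 CPM (2.49 ± 0.41, edgeR adjusted p = 9.95e-05). The 2 groups are far apart, and the PAM3 values lie within or above the range of untreated cells. Next was mt-Atp8, from 8.39, 8.65 and 10.2 CPM to 22.0, 15.6 and 27.8 CPM (1.26 ± 0.23, edgeR adjusted p = 0.000287). The others were mt-Nd5 (0.74 ± 0.19), mt-Nd2 (0.70 ± 0.22), mt-Nd1 (0.54 ± 0.20), mt-Co1 (0.48 ± 0.13), mt-Co3 (0.45 ± 0.13), mt-Nd4 (0.38 ± 0.15) and mt-Atp6 (0.36 ± 0.13). The value of mt-Co1 rose from 6711, 6737 and 6721 CPM to 9561, 8736 and 9910 CPM (edgeR adjusted p = 0.00457). It is the most abundant of these mRNAs, and its libraries at rest with 25HC are nearly equal.

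**Figure D4:**
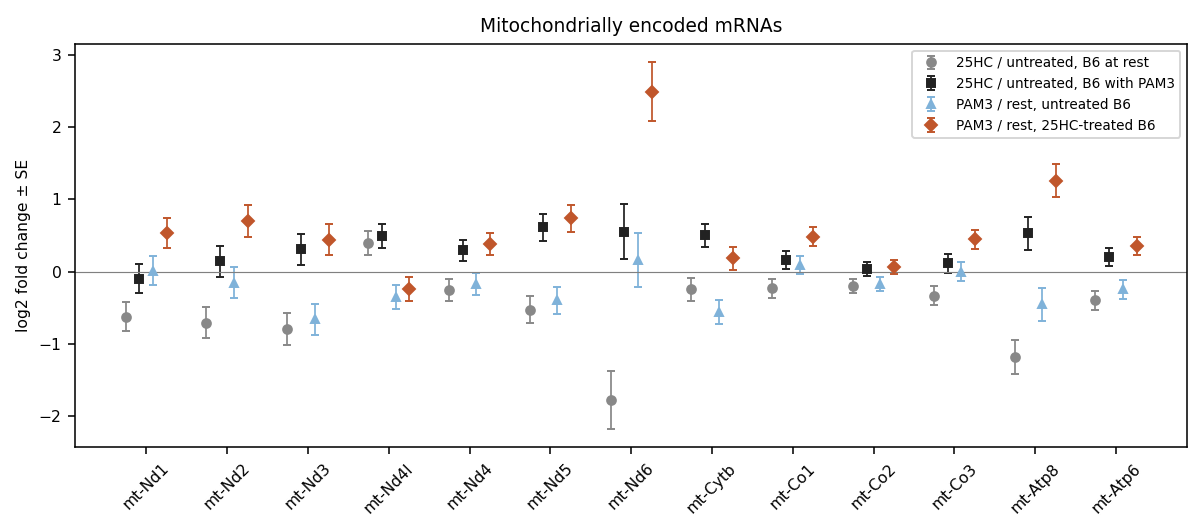
Log2 fold change ± SE of each of the 13 mitochondrial mRNAs for 25HC against untreated (at rest and with PAM3) and PAM3 against rest (in untreated and 25HC-treated B6), from 3 libraries a group. The largest changes are those of mt-Nd6, at -1.78 and 2.49, and mt-Atp8, at -1.18 and 1.26.

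The interaction of PAM3 with 25HC tests whether the PAM3 response differed between treated and untreated cells. It was negative in 34 of 79 nuclear genes and positive in 0 (median -0.53), and positive in 7 of 13 mitochondrial mRNAs and negative in 0 (median 0.60). Among all tested genes 15.8% were negative and 12.5% positive, with a median of -0.08. By complex, 19 of 35 nuclear genes of complex I, 1 of 4 of complex II, 3 of 8 of complex III, 5 of 15 of complex IV and 6 of 15 of complex V passed, all with a lower PAM3 fold change after 25HC than without it. The interaction shares its libraries with each PAM3 comparison. Among the nuclear genes that passed, the largest in magnitude were those of Uqcrq (-1.04 ± 0.27, edgeR adjusted p = 0.0124), Ndufv3 (-1.02 ± 0.22, edgeR adjusted p = 0.00419) and Cox5a (-0.99 ± 0.19, edgeR adjusted p = 0.00217). The interaction of Uqcrq is of another kind, since 25HC raised this gene at rest to 81.8 ± 14.7 CPM and its levels with PAM3 were 76.7 ± 15.3 CPM without 25HC and 80.2 ± 19.4 CPM with it (SD, n = 3). Short genes had a median of -0.34, and with the length trend removed 24 nuclear genes were negative and 1 positive (median -0.31) and 10 mitochondrial mRNAs positive (median 0.93).

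Among the mitochondrial mRNAs the interaction was 2.33 ± 0.55 for mt-Nd6 (edgeR adjusted p = 0.00731), 1.72 ± 0.33 for mt-Atp8 (edgeR adjusted p = 0.00222), 1.14 ± 0.26 for mt-Nd5, 1.11 ± 0.31 for mt-Nd3, 0.85 ± 0.30 for mt-Nd2, 0.75 ± 0.23 for mt-Cytb and 0.60 ± 0.18 for mt-Atp6. The 3 complex IV mRNAs did not pass, at 0.39 ± 0.18 for mt-Co1, 0.45 ± 0.19 for mt-Co3 and 0.23 ± 0.14 for mt-Co2. All 13 values were above 0. Of the mRNAs that passed, 6 had also fallen with 25HC at rest, so these interactions include a lower resting level after 25HC. Neither mt-Nd6 nor mt-Atp8 passed the test for 25HC with PAM3. The nuclear count moved with single libraries. It became 53 when replicate 1 of the PAM3 group, the library with the lowest nuclear share of its group, was left out. It became 18 to 22 when the library left out was replicate 3 of the untreated resting group, replicate 3 of the 25HC group, replicate 3 of the PAM3 group, or replicate 1 or 3 of the PAM3 and 25HC group. The mitochondrial count became 4 when the library left out was replicate 3 of the untreated resting group, replicate 1 of the 25HC group, replicate 2 of the PAM3 group or replicate 3 of the PAM3 and 25HC group.

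**Figure D5:**
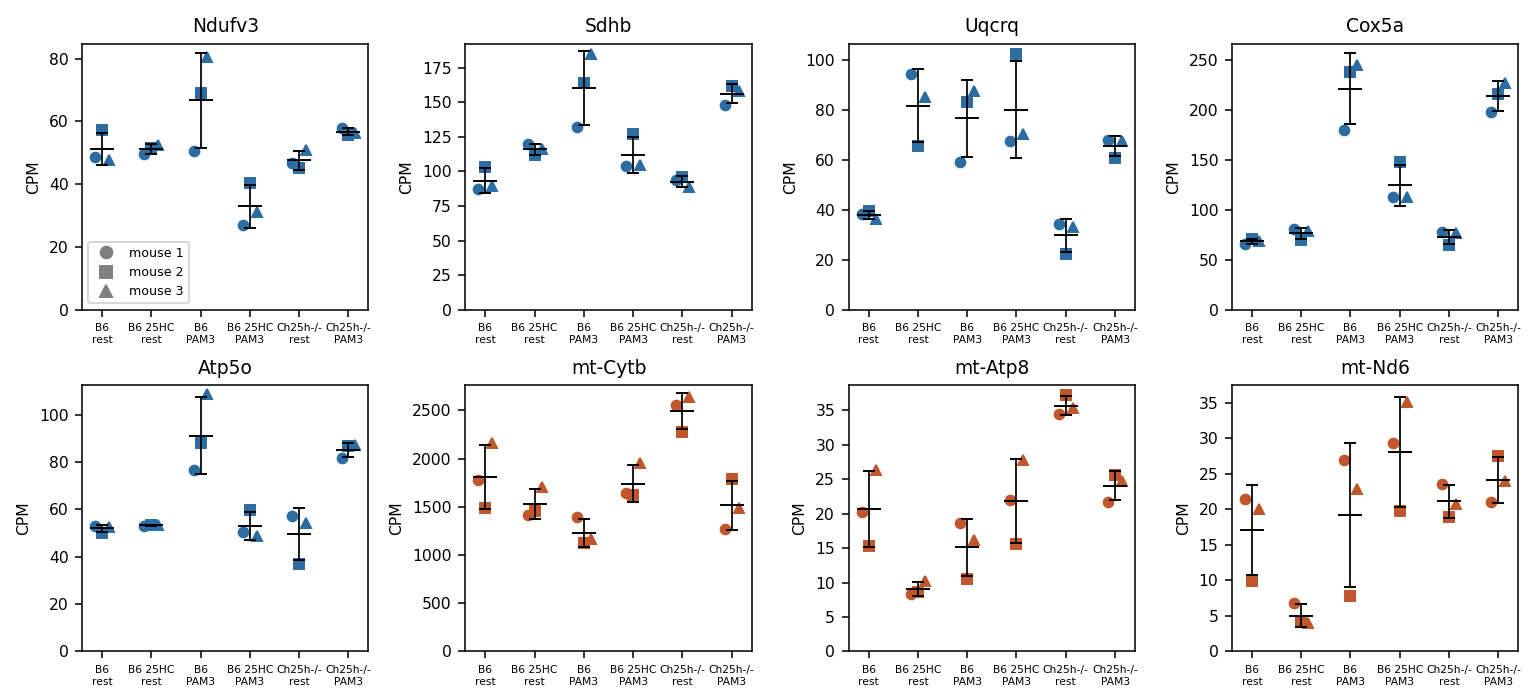
CPM of 8 genes in each library, 1 symbol per mouse, with the mean and SD of each group (n = 3). Cox5a, Sdhb, Atp5o and Ndufv3 are lower with PAM3 after 25HC than with PAM3 alone, and mt-Nd6 and mt-Atp8 are lowest in 25HC-treated cells at rest.

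In Ch25h-/- macrophages PAM3 raised 40 of 79 nuclear genes and lowered 5 (median 0.32), and it lowered 7 of 13 mitochondrial mRNAs and raised 0 (median -0.41). Among all tested genes 29.9% rose and 32.1% fell. Both genotypes shared 33 of the nuclear risers, which is 33 of 37 in B6 and 33 of 40 in Ch25h-/-. The matching overlap over all tested genes was not counted, so these fractions cannot be read as particular to respiratory chain genes. The mitochondrial falls were those of mt-Nd3, mt-Nd4, mt-Cytb, mt-Co2, mt-Co3, mt-Atp6 and mt-Atp8, and for mt-Cytb the values went from 2558, 2278 and 2636 CPM to 1272, 1784 and 1486 CPM (-0.72 ± 0.16, edgeR adjusted p = 0.00124). Their count was 3 without replicate 1 or 3 of the Ch25h-/- PAM3 group and 4 without replicate 2 or 3 of Ch25h-/- at rest. The interaction of PAM3 with genotype was called in 0 of 92 genes by edgeR and by DESeq2 (2 of 92 at an unadjusted p below 0.05, against 598 of 12741 tested genes), and among all tested genes in 0% in either direction.

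Without stimulation, no respiratory chain gene differed between Ch25h-/- and B6 by edgeR at an adjusted p below 0.05, and among all tested genes 0% were higher and 0.00785% lower. At an unadjusted p below 0.05, 12 of the 13 mitochondrial mRNAs were higher in Ch25h-/- and 0 of 79 nuclear genes differed, against 704 of 12741 tested genes, and DESeq2 called 1 of the 92. The median log2 fold change was 0.46 for mitochondrial mRNAs and -0.06 for nuclear genes. In 12 of the 13 every Ch25h-/- library lay above every B6 library, against 4.69% of all tested genes. For mt-Atp6 the value was 0.56 ± 0.13 (edgeR adjusted p = 0.394), for mt-Co2 0.38 ± 0.10 (edgeR adjusted p = 0.559) and for mt-Atp8 0.79 ± 0.23 (edgeR adjusted p = 0.663). The libraries of mt-Atp8 were at 20.2, 15.4 and 26.4 CPM in B6 and 34.4, 37.2 and 35.4 CPM in Ch25h-/-. Summed neutrophil markers were also higher in Ch25h-/- at rest, at 8.96 to 46.2 CPM against 3.25 to 4.53 CPM in B6. Summed fibroblast markers were at 2.98 to 11.4 CPM in Ch25h-/- at rest against 2.06 to 3.58 CPM in B6, with overlap. The part of either in the result was not tested. Across the genotypes at rest, the deviations of libraries with the same mouse number correlated at 0.574, 0.705 and 0.327. The highest correlations with another number were 0.366, -0.433 and 0.407, so number 3 did not stand out. Deviations are from the group mean and cancel out within a group, so a positive value for the same number lowers those for other numbers. With the number as a block 0 of the 92 genes were called as well. The 13 mitochondrial mRNAs share 1 organelle and 1 genome and are not independent of each other. With PAM3, 0 of 92 genes differed by edgeR and by DESeq2 (7 at an unadjusted p below 0.05, against 1784 of 12741 tested genes), among all tested genes 0.0471% were higher and 0.126% lower, and the mitochondrial median was 0.29.

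Subunits with alternative isoforms were followed whatever their values. Cox6a2, the isoform of heart and skeletal muscle, rose in B6 with 25HC and with PAM3 from a very low level, while Cox6a1, the general isoform, was far more abundant. Cox6a2 was at 0.495, 0.683 and 0.415 CPM in B6 at rest, 2.14, 1.499 and 1.48 with 25HC, 3.52, 2.79 and 4.16 with PAM3 and 5.74, 8.96 and 6.36 with both. These 4 groups do not overlap, and the log2 fold change of 25HC was 1.65 ± 0.40 at rest and 1.02 ± 0.34 with PAM3 (edgeR adjusted p = 0.00749 and 0.024). The second of these calls ended without replicate 2 of the PAM3 group or of the PAM3 and 25HC group. Cox6a1 was at 80.4 ± 5.67 CPM in B6 at rest and 120.4 ± 28.2 CPM with PAM3 (SD, n = 3).

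Cox6b2, the isoform of testis, fell with PAM3 from 0.804, 1.55 and 0.997 CPM to 0.128, 0.185 and 0.197 CPM (-2.69 ± 0.39, edgeR adjusted p = 2.82e-05), and with both agents it had 4 counts in each library. Cox7a1, another muscle isoform, was at 0.996, 1.24 and 1.43 CPM with PAM3 and 0.228, 0.435 and 0.208 CPM with PAM3 after 25HC (-1.98 ± 0.35, edgeR adjusted p = 0.000349). All 3 isoforms stayed under 10 CPM in B6, far below those of Cox6b1 and Cox7a2.

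Ndufa4 encodes a subunit of complex IV for which a related protein, encoded by AA467197 (Nmes1), can stand in. AA467197 was not selected by name and is given as the partner of Ndufa4. It rose with 25HC at rest from 4.64, 2.48 and 3.261 CPM to 41.4, 18.1 and 27.7 CPM (3.09 ± 0.56, edgeR adjusted p = 0.00146), and with PAM3 from 9.35, 2.43 and 6.19 CPM to 66.6, 53.4 and 71.2 CPM (3.43 ± 0.56, edgeR adjusted p = 0.00017). The groups are widely separated in both states. Ndufa4 was at 75.6, 71.1 and 75.01 CPM at rest and 76.6, 73.5 and 77.7 CPM with 25HC (0.04 ± 0.13). With PAM3 it was at 61.8, 75.8 and 88.1 CPM and after 25HC at 51.7, 67.2 and 54.8 CPM (-0.38 ± 0.13, edgeR adjusted p = 0.0269), and these groups overlap. In CPM, AA467197 was thus close to Ndufa4 only in the PAM3 and 25HC group, at 63.7 ± 9.26 against 57.9 ± 8.16 CPM (SD, n = 3), values that are not scaled by gene length.

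Some nuclear genes share part of their sequence with a look-alike, which was counted more abundantly than the gene itself for Atp5h and Atp5l but not for Cox5b. Gm10250, a processed pseudogene of Atp5h on chromosome 15, had a mean of 82.6 CPM with PAM3 and 63.3 CPM with PAM3 after 25HC (-0.38 ± 0.12), beside a fall of Atp5h by 0.30 on the log2 scale. Gm10221, a look-alike of Atp5l, fell by 0.36 and Atp5l itself by 0.47 on the log2 scale. Gm11273, annotated as protein-coding and like Cox5b, had a value of -0.38 ± 0.15, the same as Cox5b to 2 decimals. Reads of these genes and of their look-alikes cannot be told apart along the shared stretches. Among the 66 members with under 10% of shared stretches, a limit chosen after seeing the data, 25HC with PAM3 lowered 37 and raised 3, PAM3 alone raised 28 and lowered 3, and the interaction was negative in 27 and positive in 5.

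The genes that build and regulate the chain were taken from lists outside the name rule. With PAM3 in untreated B6, 27 of 47 assembly factors rose and 5 fell (median 0.42), 48 of 76 mitochondrial ribosomal protein genes rose and 0 fell (0.43), 14 of 20 genes of the tricarboxylic acid cycle list rose and 3 fell (0.56), and 13 of 23 genes of mitochondrial transcription and RNA handling rose and 1 fell (0.45), against 31.3% and 30.8% of all tested genes. With 25HC in the presence of PAM3, 17 assembly factors fell and 4 rose (-0.34), 19 mitochondrial ribosomal protein genes fell and 4 rose (-0.19), 8 tricarboxylic acid cycle genes fell and 2 rose (-0.40), and 2 of the 23 transcription and RNA genes fell and 8 rose (0.17). Of all tested genes, 23.6% fell and 21.5% rose there, so the share of mitochondrial ribosomal protein genes that fell was near the background. At rest with 25HC, 12 assembly factors and 21 mitochondrial ribosomal protein genes rose and 1 of each fell, against 14.8% and 11.4% of all tested genes. Cox20, an assembly factor for complex IV, went from 9.99, 12.2 and 15.8 CPM with PAM3 to 5.39, 6.52 and 5.92 CPM after 25HC (-1.08 ± 0.16, edgeR adjusted p = 7.28e-05). Cyc1, the cytochrome c1 subunit of complex III that the name rule missed, rose with PAM3 by 1.14 ± 0.15 and had an interaction of -0.76 ± 0.21. Of 21 mobile carriers and other subunits 13 rose with PAM3 and 3 fell.

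Regulators of nuclear respiratory genes, the receptor Esrra (ERR alpha) and the coactivator Ppargc1b (PGC-1 beta) among them, were followed as well: both rose with PAM3 in untreated B6, and both were lower with PAM3 after 25HC than with PAM3 alone. Ppargc1b was at 1.30, 1.30 and 1.35 CPM in B6 at rest and 4.95, 6.13 and 3.94 CPM with PAM3 (1.93 ± 0.22, edgeR adjusted p = 3.06e-06), but at 1.30, 1.37 and 1.39 CPM with PAM3 after 25HC (-1.89 ± 0.22 against PAM3 alone, edgeR adjusted p = 1e-05). The level with both agents was that of cells at rest. Esrra was at 32.6, 34.0 and 28.2 CPM at rest, 65.3, 91.3 and 85.0 CPM with PAM3 and 50.9, 61.4 and 47.5 CPM with both (-0.60 ± 0.13, edgeR adjusted p = 0.00157). At rest 25HC raised it by 0.52 ± 0.13, a call that ended without replicate 3 of the untreated or replicate 1 of the 25HC-treated resting cells (edgeR adjusted p up to 0.0661). The interactions were -2.03 ± 0.32 for Ppargc1b and -1.11 ± 0.18 for Esrra. Gabpa, the DNA-binding part of the factor GABP, was instead higher with 25HC in the presence of PAM3 (0.64 ± 0.13), as was Nrf1 (0.47 ± 0.12). In all, 6 of 12 regulators rose and 3 fell in that comparison, against 21.5% and 23.6% of all tested genes, and the share that fell was near the background.

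Of the genes that act on mitochondrial DNA and RNA, Tfam, which packages the mitochondrial chromosome and starts its transcription, passed no test and stayed between 21 and 28.4 CPM in the 18 libraries. Polrmt, the mitochondrial RNA polymerase, rose with 25HC at rest from 18.9, 17.9 and 17.9 CPM to 27.9, 23.1 and 29.2 CPM (0.55 ± 0.12, edgeR adjusted p = 0.00454), in the comparison in which mitochondrial mRNAs fell. Peo1 (Twinkle), the mitochondrial DNA helicase, was at 7.05, 6.83 and 7.79 CPM with PAM3 and 14.1, 12.2 and 12.8 CPM with PAM3 after 25HC (0.85 ± 0.12, edgeR adjusted p = 4.12e-05). Slirp, which helps to stabilise mitochondrial mRNAs, went the other way, from 38.7, 43.2 and 57.0 CPM to 30.2, 36.3 and 30.3 CPM (-0.52 ± 0.13, edgeR adjusted p = 0.00419).

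Promoters were searched for the letters that these regulators are known to bind, in windows of 300 bases from 250 before to 50 after the annotated start (RefSeq, GRCm38.p6), which matched 65 of the 79 nuclear genes with 71 windows, since some genes have several starts. On either strand, the NRF1 motif (the letters in capitals in Uqcrc1) was present in 5 of 71 windows (7.04%) against 0.974% of 32544 promoters. CCGGAAG (ETS factors, GABP among them) was present in 16 (22.5%) against 8.91%, AAGATGGC (YY1) in 11 (15.5%) against 2.77%, and TCAAGGTCA (ERR) in 2 (2.82%) against 0.412%. A match is a description of the window only. One window with each motif is shown, from genes with a negative interaction, with the motif in capitals, 5′ to 3′ on the strand of the gene: Uqcrc1 (NRF1, chr9:108936398-108936697, plus), Sdhb (ETS, chr4:140961021-140961320, plus), Ndufs4 (YY1, chr13:114388045-114388344, minus) and Atp5g3 (ERR on the opposite strand, chr2:73911277-73911576, minus).
Uqcrc1: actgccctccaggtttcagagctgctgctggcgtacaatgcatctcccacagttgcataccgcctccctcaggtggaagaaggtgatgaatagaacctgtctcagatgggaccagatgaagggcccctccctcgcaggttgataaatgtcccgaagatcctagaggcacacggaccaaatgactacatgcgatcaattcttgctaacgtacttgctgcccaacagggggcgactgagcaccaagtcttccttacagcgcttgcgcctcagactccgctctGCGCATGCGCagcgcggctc
Sdhb: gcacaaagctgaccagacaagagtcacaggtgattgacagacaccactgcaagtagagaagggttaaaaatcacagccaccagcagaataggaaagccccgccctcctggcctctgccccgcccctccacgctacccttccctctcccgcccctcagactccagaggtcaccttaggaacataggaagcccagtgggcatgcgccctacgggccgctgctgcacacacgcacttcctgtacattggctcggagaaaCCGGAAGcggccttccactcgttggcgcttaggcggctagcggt
Ndufs4: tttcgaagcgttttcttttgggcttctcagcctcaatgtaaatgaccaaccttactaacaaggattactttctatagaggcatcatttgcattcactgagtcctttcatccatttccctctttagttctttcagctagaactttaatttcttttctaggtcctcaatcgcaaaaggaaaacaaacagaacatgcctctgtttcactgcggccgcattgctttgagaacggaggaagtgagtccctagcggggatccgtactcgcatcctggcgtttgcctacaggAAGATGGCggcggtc
Atp5g3: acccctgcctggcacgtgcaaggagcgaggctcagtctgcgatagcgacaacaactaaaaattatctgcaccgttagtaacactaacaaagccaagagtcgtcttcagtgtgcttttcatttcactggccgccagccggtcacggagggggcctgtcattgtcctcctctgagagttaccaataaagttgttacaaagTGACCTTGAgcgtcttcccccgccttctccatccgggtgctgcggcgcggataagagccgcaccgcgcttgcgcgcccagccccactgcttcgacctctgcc
The interactions of these 4 genes were -0.55 ± 0.16 (Uqcrc1), -0.83 ± 0.17 (Sdhb), -0.55 ± 0.18 (Ndufs4) and -0.73 ± 0.24 (Atp5g3). Genes with a motif also include Atp5g2 (NRF1) and Ndufs3 (ETS), which passed the test in no comparison. Whether a motif goes with a negative interaction was not tested.

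A few genes passed the test in no comparison: Atp5g2, Atp5j, Cox7c, Ndufa6, Ndufa7, Ndufs3, Uqcr10 and Uqcrfs1, 8 of the 92. Uqcrfs1, the Rieske protein, had log2 fold changes of 0.06 ± 0.08 with 25HC at rest and 0.04 ± 0.08 with PAM3, close to 0 in both. Of the 79 nuclear genes, 2 were lower with 25HC both at rest and with PAM3, Cox6b2 and Atp5s, the latter by -0.59 ± 0.15 and -0.51 ± 0.15.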

How the data were processed

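Polyadenylated RNA of 18 libraries was sequenced with a stranded kit, per the labels. The deposited values are raw counts per gene; per the submitters' processing notes the authors used FastQC 0.11.9, GSNAP, featureCounts (Subread 1.5.2), edgeR 3.26.8 and the build GRCm38 (mm10). Here the counts were fitted once over all 6 groups with edgeR 4.0.16 (TMM scaling, filterByExpr, robust quasi-likelihood test) in R 4.3.3, with 12 residual degrees of freedom, a biological coefficient of variation of 0.192 and Benjamini-Hochberg adjustment over 12741 genes. CPM are counts divided by the TMM-scaled library total, shares use the unscaled total, and exon lengths and shared 50-base stretches come from GENCODE M21, which held 30118 of the 30530 gene IDs. Alternatives were DESeq2 1.42.0, other scaling and filters, thinning, removal of the length trend, a replicate block and leaving out libraries. The labels tie same-numbered libraries of a genotype to the same mouse, and the correlation of their deviations was -0.162 to 0.581. Across genotypes, where the labels do not say what a number shares, it was 0.0949 to 0.705. Between libraries of different numbers it reached 0.329 within and 0.407 across genotypes. Deviations cancel out within a group, so the correlations for same and for different numbers are not independent.

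Each comparison was described by its counts and median over the listed genes, beside those over all tested genes. The rule for named genes took all mitochondrial mRNAs, the called nuclear genes with the largest rise and fall in each complex and comparison, up to 4 called genes of smallest adjusted p, isoform genes, up to 4 genes of each other list and 5 regulators. Other subunits (such as Sdha, Ndufs8, Atp5a1 and those named as passing no test) were named after their values were seen, to complete a complex or a count. The members, lists and named genes were chosen with earlier results of these data known. Scripts were tested on simulated data. Python 3.11.15 (numpy 2.4.6, pandas 2.3.3, matplotlib 3.10.9) was used for summaries.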

Additional observations from a re-analysis of the deposited data

Results flagged for a closer look

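The difference in the PAM3 response between 25HC-treated and untreated B6 cells was itself tested, by the interaction term of edgeR's fit with 3 libraries a group. It passed as a lower response after 25HC in 34 nuclear genes and as a higher response in 7 mitochondrial mRNAs. Of these 7 mRNAs, 6 had also fallen with 25HC at rest, so their interactions include a lower resting level. The largest interactions were 2.33 for mt-Nd6, 1.72 for mt-Atp8 and 1.14 for mt-Nd5 among mitochondrial mRNAs, and -1.04 for Uqcrq, -1.02 for Ndufv3 and -0.99 for Cox5a among nuclear genes (log2). The calls of mt-Nd6, mt-Atp8 and Cox5a held when any 1 library was left out.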

How the results depend on the processing

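Counts of genes called, higher and lower together, were 14 for 25HC at rest, 46 for 25HC with PAM3, 43, 40 and 52 for PAM3 in untreated B6, 25HC-treated B6 and Ch25h-/-, and 41 for the interaction of PAM3 with 25HC. With the replicate block they were 15, 53, 46, 43, 55 and 46, and the pairing by mouse moved no count by over 1.5 times. The count of 14 became 23 with the replicate block and the length trend removed, 8 (5 higher, 3 lower) with only the groups compared and 22 without replicate 2 of every group. For PAM3 in 25HC-treated cells the balance turned to higher with the length trend removed (39 called, 25 higher and 14 lower), and with the block as well (42, 27 and 15). DESeq2 called 1 gene between genotypes at rest. Leaving out 1 library gave 5 to 14 calls for 25HC at rest and 22 to 62 for the interaction. The nuclear share without its 5 most abundant genes was 0.389%, 0.435%, 0.435%, 0.347%, 0.373% and 0.431% in B6 at rest, with 25HC, PAM3 and both, and in Ch25h-/- at rest and with PAM3. With TMM-scaled totals it was 0.513%, 0.553% and 0.663% in B6 at rest, B6 with 25HC and Ch25h-/- with PAM3, and the mitochondrial share was 1.18% in B6 with 25HC and 1.99% in Ch25h-/- at rest. Without mitochondrial genes in the denominator the nuclear share was 0.551% in B6 at rest and the mitochondrial 2.14% in Ch25h-/- at rest. The cause was not tested for these differences. Of 5091 values of named genes under the alternatives, 4780 kept their call, 311 lost it and 0 changed direction. Genes with few counts, such as Cox6b2, are limited by depth.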
